A study of Caenorhabditis elegans with 4 samples.

Results

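H3K36me3, histone H3 carrying 3 methyl groups on lysine 36, was mapped in the arms of chromosome V of Caenorhabditis elegans. Whole worms of strain N2, the standard laboratory strain, were collected at the L3 larval stage, crosslinked for 10 minutes in 1% formaldehyde and profiled by chromatin immunoprecipitation and sequencing (ChIP-seq). Of the 4 samples, 2 are immunoprecipitations with the Abcam antibody AB9050 (replicates 1 and 7) and 2 are input DNA. No genotype, treatment or tissue differed between them, and each immunoprecipitation has its own peak list. The inputs are numbered 1 and 2, so the numbers do not match each input to an immunoprecipitation. The peaks described here are those on chromosome V whose midpoint lies below 5.9 Mb, the left arm, or above 16.55 Mb, the right arm, in coordinates of genome build WS190. They were chosen by position and not by any measured level. Replicate 1 had 384 such peaks of 5973 in its list, with 208 in the left arm and 176 in the right arm. Replicate 7 had 411 of 6223, with 252 in the left arm and 159 in the right arm.

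In C. elegans H3K36me3 is laid down over the bodies of transcribed genes. The enzyme MET-1 adds it in step with transcription, and the enzyme MES-4 keeps it on genes that were active in the germ line of the parent. Chromosome arms recombine more often than centres and hold more repeats and more rapidly evolving gene families. The arms of chromosome V carry large families of chemoreceptor genes, most of which are active in a few sensory neurons. The lists give positions without genes, so neither the gene content nor the recombination of the arms was checked against the data, and the peaks are named by position.

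Read counts are not part of the lists, so the depth of the libraries is unknown, and a stretch without a peak may still carry the mark at a level that the authors' calling did not report. The score of each peak is the authors' own and was used to describe and rank peaks within a list. Nothing in the labels ties the replicates to separate cultures, and their SD may therefore be technical. With 2 samples, an exact sign-flip test of a difference cannot give a two-sided p below 0.5, and differences are therefore given with the value in each sample. The boundaries fell between peaks, since counting whole peak widths gave the same cover as counting bases inside the arms. At the left boundary the nearest peaks inside were 5839644 to 5842865 in replicate 1 and 5840123 to 5843040 in replicate 7, at 3222 and 2918 bp wide, and the nearest outside, 5913783 to 5917783 and 5913737 to 5917792, were 4001 and 4056 bp wide. At the right boundary replicate 1 had its nearest peak inside at 16785992 to 16787633, and replicate 7 had its own at 16553227 to 16554565, at scores of 375.24 and 185.81. The nearest outside were 16543190 to 16546401 and 16544831 to 16546017, at scores of 663.07 and 201.65.

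Which arm had the larger share of its length under peaks depended on the replicate and on where the arms were taken to end. Of the 5.9 Mb of the left arm, peaks covered 9.76% in replicate 1 and 9.42% in replicate 7, which averages 9.59% ± 0.237 (SD, n = 2). The right arm spanned 4.35 Mb, and they covered 9.94% of it in replicate 1 and 8.11% in replicate 7, a mean of 9.03% ± 1.29. In replicate 1 left minus right was -0.182 percentage points, and in replicate 7 it was 1.31. The mean of this difference was 0.564 ± 1.06 percentage points (exact sign-flip test, two-sided p = 1), which is smaller than the spread between the replicates. The sign of this mean also turned when the boundaries moved 0.5 Mb towards the chromosome ends, at -0.157, and when the longest empty stretch of each arm was left out, at -0.0647. That stretch was 385 kb in the left arm and 547 kb in the shorter right arm. Leaving it out therefore raises the right arm's cover more. The left arm was higher in both replicates under 4 other settings, each with an exact sign-flip p of 0.5, the smallest it can give. With the middle 50% of the chromosome taken as centre the mean difference was 1.24 ± 0.796 percentage points, and with boundaries 0.5 Mb towards the centre it was 1.15 ± 1.01. Among the upper 50% of each whole list by score it was 1.06 ± 0.894. Right-arm peaks stood lower in the lists by score (median percentile 35.6 and 32.1 in replicates 1 and 7, against 43.6 and 42.9 in the left arm). This cut therefore takes a larger share of the right arm's peaks. Without the island with the most peaks in each arm (islands are defined further on, and this setting was chosen after seeing the data) the mean difference was 1.30 ± 0.633. These islands held 17.4% and 16.6% of the left arm's cover in replicates 1 and 7, and 27.1% and 23.4% of the right arm's. Leaving them out therefore takes more from the right arm.

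The number of peaks crossed over in the same way. The left arm had 35.3 peaks per Mb in replicate 1 and 42.7 in replicate 7, and the right arm had 40.4 and 36.5. Left minus right was -5.19 peaks per Mb in replicate 1 and 6.17 in replicate 7 (mean 0.492 ± 8.04, exact sign-flip test, two-sided p = 1). After peaks within 500 bp of each other were joined, the left arm had 168 domains in replicate 1 and 178 in replicate 7, and the right arm had 127 and 123.

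Cover was uneven along both arms and high next to both chromosome ends. In the outermost 500 kb, 19.2% ± 1.15 (SD, n = 2) of the left arm and 16.3% ± 0.194 of the right arm lay under peaks. The first peak of the chromosome began at 5914 in replicate 1 and at 5795 in replicate 7, and the last ended at 20901674 and 20893750. Further in, the left arm had its lowest cover between 3 and 3.5 Mb from its end, at 1.499% in replicate 1 and 2.18% in replicate 7. A second maximum followed between 4.5 and 5 Mb, at 19.1% and 16.7%. The right arm was nearly empty between 3.5 and 4 Mb from its end, at 1.27% and 0.786%. It had a second maximum between 2.5 and 3 Mb from its end, at 18.6% in replicate 1 and 13.1% in replicate 7.

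**Figure D1:**
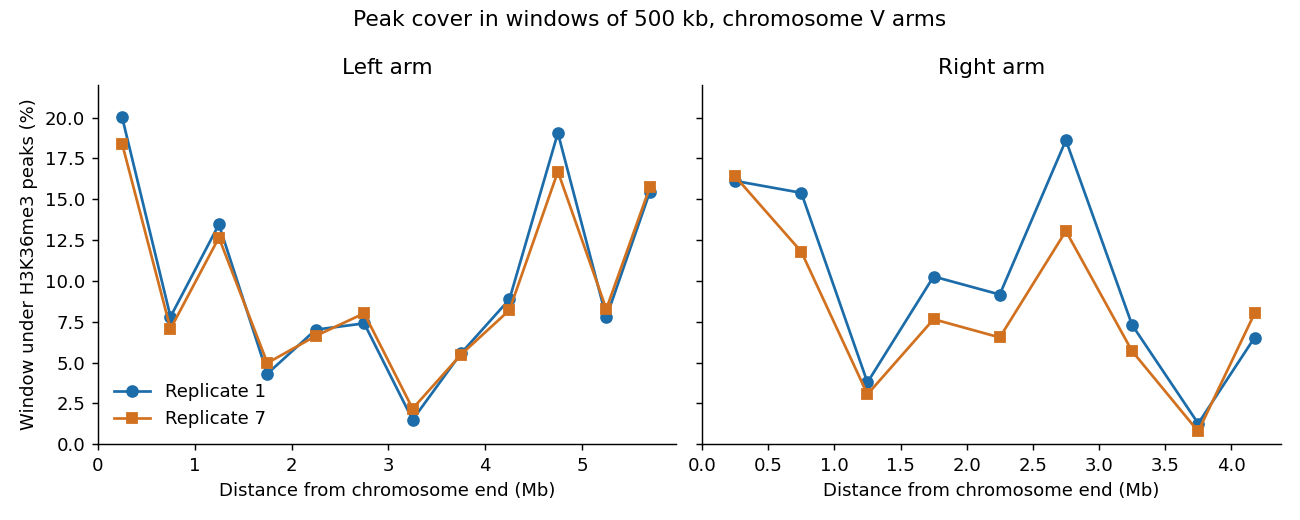
Percentage of each window of 500 kb under H3K36me3 peaks (vertical axis) against the distance of the window's middle from the nearer chromosome end in Mb (horizontal axis), for the left arm (left panel) and the right arm (right panel); circles are replicate 1 and squares replicate 7, and the innermost window of each arm is shorter than 500 kb. The left arm is lowest at 3 to 3.5 Mb, with 1.499% and 2.18%, the right arm at 3.5 to 4 Mb, with 1.27% and 0.786%, and the lines of the replicates lie furthest apart in the right arm at 2.5 to 3 Mb.

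In windows of 100 kb the left arm held the most covered part of either arm. Peaks covered 58.2% of the window from 100001 to 200000 bp in replicate 1 and 56.05% in replicate 7, and the next in that arm by the mean of the replicates, 5500001 to 5600000, had 30.8% and 29.0%. The window from 4500001 to 4600000 was higher than that one in replicate 1, at 31.6%, and lower in replicate 7, at 27.1%. By the same mean the highest of the right arm were 2 neighbouring windows from 17850000 to 18049999, with 40.8% and 38.8% in replicate 1 and 32.9% and 23.7% in replicate 7. Windows with no base under a peak in either list numbered 8 of 59 (13.6%) in the left arm and 11 of 43 (25.6%) in the right arm. Over the 59 windows of the left arm the cover in replicate 7 followed that in replicate 1 with Pearson's r = 0.991 and Spearman's rho = 0.969. Over the 43 windows of the right arm r was 0.940 and rho was 0.951. Windows are neighbours on 1 chromosome and share the same libraries, so these are descriptions.

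The arms differed more in how their unmarked length was arranged than in how much was marked. Stretches of at least 100 kb without a peak of the same list took up 35.4% of the left arm in replicate 1 and 33.5% in replicate 7, and 53.2% of the right arm in both. Left minus right came to -17.8 percentage points (replicate 1) and -19.7 (replicate 7), a mean of -18.8 ± 1.38 (SD, n = 2), lower in the left arm in 2 of 2 samples (exact sign-flip test, two-sided p = 0.5, the smallest it can give). With a minimum of 50 kb the left arm had 66.5% and 64.3% of its length in such stretches and the right arm 71.4% and 73.8%, a mean difference of -7.20 ± 3.23. With 20 kb the difference was 0.345 in replicate 1 and -1.94 in replicate 7, so the arms were near equal in that measure, at a mean of 81.4% ± 0.185 in the left arm and 82.2% ± 1.43 in the right arm.

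**Figure D2:**
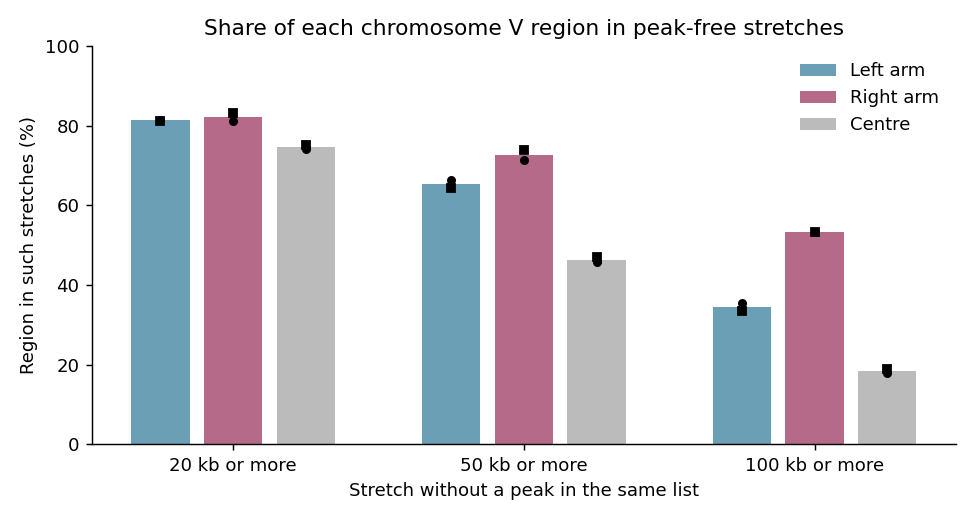
Percentage of the left arm, the right arm and the centre of chromosome V (vertical axis) that lies in stretches without a peak of the same list, for stretches of at least 20, 50 and 100 kb (horizontal axis); bars are means of the 2 replicates, circles are replicate 1 and squares replicate 7. The bars of the arms are nearly level at 20 kb (81.4% and 82.2%) and apart at 100 kb (34.5% and 53.2%), and the centre is below both at each length.

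Over both lists, the left arm had 36 stretches of at least 50 kb without a peak in either replicate and the right arm had 22, with medians of 82.7 and 76.4 kb. The 3 longest of the left arm were 385 kb (3759211 to 4144107), 213 kb (2877168 to 3090019) and 169 kb (363994 to 533058). The 3 longest of the right arm were 547 kb (16967901 to 17515122), 381 kb (18114838 to 18495651) and 255 kb (19349014 to 19603633). Stretches of at least 100 kb numbered 12 in the left arm and 9 in the right arm, and their medians were 130 kb and 198 kb. Their number per Mb was alike, at 2.03 in the left arm and 2.07 in the right arm, and their length was not.

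Between these stretches the peaks formed islands, here defined as runs of peaks of either list whose gaps are all shorter than 50 kb. The left arm had 36 islands, which spanned 38.4% of the arm, and the right arm had 23, which spanned 30.2%. Inside the islands the peaks were spaced more densely in the right arm. The islands of the left arm had 91.7 peaks per Mb of island in replicate 1 and 111 in replicate 7, and those of the right arm 134 and 121. Of the island length, 25.4% and 24.5% lay under peaks in the left arm, and 33.0% and 26.9% in the right arm. Both measures are fixed by the values for the whole arm and by the island span. They are therefore not a result separate from the larger empty share of the right arm. The median gap inside islands, over both lists, was 2240 bp in the left arm and 1514 bp in the right arm. The 3 islands with the most peaks held 29.8% of the left arm's peaks in replicate 1 and 32.9% in replicate 7, and 41.5% of the right arm's peaks in both. They were 3 of 36 islands in the left arm and 3 of 23 in the right arm, so these shares are not on an equal footing.

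The largest islands lay at the chromosome ends and deep inside the arms. The left arm's island with the most peaks lay at its end, 5795 to 363993, with 30 peaks in replicate 1 and 36 in replicate 7. They covered 100 kb and 92.1 kb, of which 87.2 kb was common to both lists. The next were 4509773 to 4735523, with 18 and 27 peaks, and 904818 to 1048896, with 14 and 20. The first of the right arm was an internal island of 268 kb, 17846696 to 18114837, which lay between stretches of 198 and 381 kb without a peak. It held 40 peaks in replicate 1 and 38 in replicate 7, or 22.7% and 23.9% of the peaks of the arm. Its cover was 43.7% in replicate 1 and 30.9% in replicate 7. Of the 40 peaks of replicate 1, 11 had no partner in replicate 7, and of the 38 of replicate 7, 1 had none in replicate 1. The island at the right end, 20662637 to 20901674, held 19 and 17 peaks, and its cover was 22.4% in replicate 1 and 23.7% in replicate 7. The remaining island of this group, 20375744 to 20513261, held 14 and 11 peaks.

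**Figure D3:**
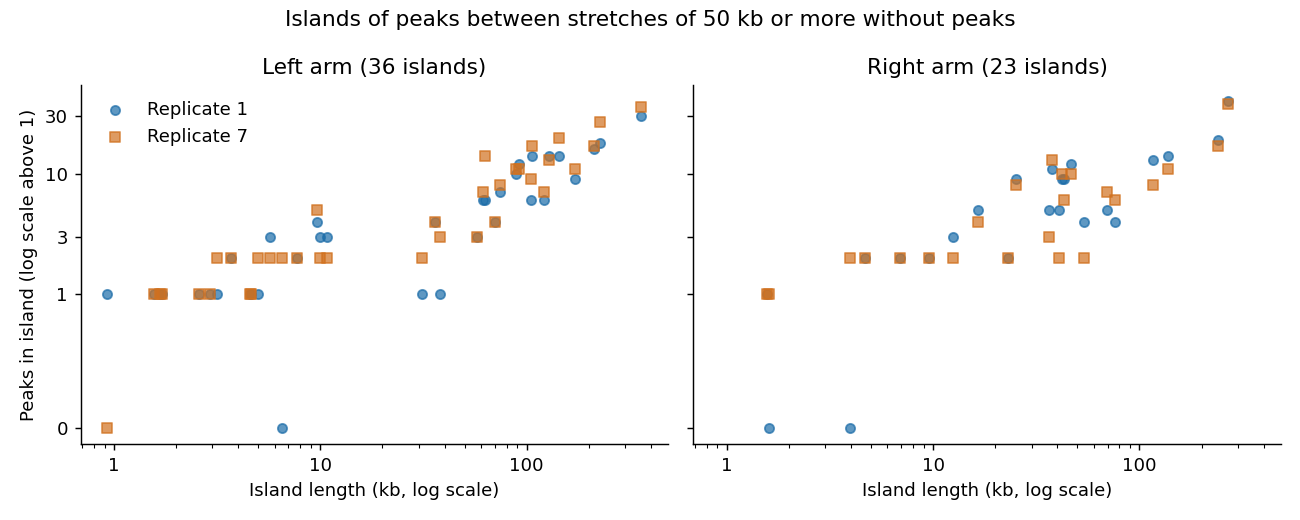
Number of peaks in each island (vertical axis, log scale above 1) against its length in kb (horizontal axis, log scale), for the 36 islands of the left arm (left panel) and the 23 of the right arm (right panel); circles are replicate 1 and squares replicate 7. Islands run from a lone peak of about 1 kb to 358 kb in the left arm and 268 kb in the right arm, and the lone peaks gather in the left panel.

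At the other end of the scale were lone peaks. Islands shorter than 10 kb numbered 16 of 36 in the left arm and 6 of 23 in the right arm. Islands of exactly 1 peak in each list numbered 7 in the left arm and 1 in the right arm. The scores of these 7 ran from 144.59 to 3100 in replicate 1 and from 88.54 to 3100 in replicate 7. The island 4958550 to 4963104 in the left arm was a peak of 4.56 kb with a score of 3100 in both lists, a value at which many peaks are tied, covered to 100% by replicate 1 and 96.5% by replicate 7, with 67.1 kb and 86.7 kb free of peaks on its sides. It was picked after its values were seen. Islands with equal numbers of peaks over both lists were ordered from the shortest. This decided the choice only in the left arm, where several islands had 2 peaks over both lists and the 2 shortest are named. The left-arm islands with the fewest peaks were 3090020 to 3090947, present in replicate 1 alone with a score of 57.89, then 3442739 to 3444299, with scores of 144.59 and 88.54, and 2875503 to 2877167, with 395.92 and 421.62. Those of the right arm were 20153957 to 20155564 and 16553227 to 16557161, both present in replicate 7 alone, and 18775495 to 18777054, with scores of 90.94 and 182.35. The island at 16553227 lies at the arm boundary, within 50 kb of a peak outside the arm.

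Peaks in both arms were mostly a few kb wide, and as called the left arm's had the larger median width in both replicates. Left-arm peaks had a median width of 2132 bp (interquartile range 1395 to 3232 bp) in replicate 1 and 1667 bp (1226 to 2580 bp) in replicate 7. Right-arm peaks had a median width of 1909 bp (1234 to 3257 bp) in replicate 1 and 1551 bp (1149.5 to 2619 bp) in replicate 7. Left minus right was 223 bp and 116 bp (mean 169.5 ± 75.7, exact sign-flip test, two-sided p = 0.5). The mean difference turned among the upper 50% of each whole list by score, at -205.5 ± 327 bp. That cut takes a larger share of the right arm's peaks. With peaks within 500 bp joined, the medians were 2422 bp (replicate 1) and 2313.5 bp (replicate 7) in the left arm, and 2613 and 2044 bp in the right arm. The order then turned in replicate 1, and the mean difference was 39.25 ± 326 bp (exact sign-flip test, two-sided p = 1). Peaks of 5 kb or more made up 10.1% of the left arm's peaks in replicate 1 and 4.76% in replicate 7, and 9.66% and 6.92% of the right arm's. Peaks under 1 kb numbered 16 and 7 in the left arm, and 25 and 10 in the right arm.

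The widest peaks showed how the lists divided the same domains. The widest of the left arm in replicate 1 was 19.8 kb (4608075 to 4627884), over which replicate 7 had 6 peaks that together covered 87.9% of it. Next were 18.2 kb (104763 to 122929), matched by 3 peaks of replicate 7, and 11.8 kb (185974 to 197794), matched by 4. In replicate 7 the widest of the left arm were 12.4 kb (110695 to 123073), 9.30 kb (1008402 to 1017696) and 8.39 kb (4338443 to 4346834), each inside or nearly inside 1 peak of replicate 1. The same domain of the right arm was the widest in both lists, at 11.8 kb in replicate 1 (16802373 to 16814217) and 11.6 kb in replicate 7 (16802367 to 16814006). The following ones of replicate 1 were 7997 bp (19634506 to 19642502) and 7.63 kb (19937040 to 19944665), each matched by 2 peaks of replicate 7. Those peaks covered 96.7% of the one at 19634506 and 59.9% of the one at 19937040. Those of replicate 7 were 10.6 kb (20662637 to 20673240) and 8.98 kb (18997536 to 19006515). Both were the reverse case, each overlapping 2 peaks of replicate 1. These covered 30.0% of the peak at 20662637 and 96.9% of the peak at 18997536.

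Replicate 1 peaks of the left arm were often divided in replicate 7. There, 36 of 208 replicate 1 peaks (17.3%) overlapped 2 or more peaks of replicate 7, as did 22 of 176 (12.5%) in the right arm, against 11.2% of the whole list. The reverse, a replicate 7 peak over 2 or more of replicate 1, occurred for 7 of 252 peaks (2.78%) in the left arm and 8 of 159 (5.03%) in the right arm, against 4.82% of the whole list. The shares in the right arm were near those of the lists as a whole.

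Most peaks of the arms were found in both replicates, and the exceptions were most numerous among the replicate 1 peaks of the right arm. Of the left arm's peaks, 185 of 208 in replicate 1 (88.9%, exact Clopper-Pearson 95% interval 83.9 to 92.9%) overlapped a peak of replicate 7 by at least 1 bp. In replicate 7, 226 of 252 (89.7%, 85.2 to 93.1%) overlapped a peak of replicate 1. Of the right arm's peaks, 135 of 176 in replicate 1 (76.7%, 69.8 to 82.7%) and 150 of 159 in replicate 7 (94.3%, 89.5 to 97.4%) had a partner. Over the whole lists the shares were 89.6% in replicate 1 and 94.8% in replicate 7. The replicate 1 peaks of the right arm lay below the share of their list, and so did the replicate 7 peaks of the left arm, whereas the other 2 groups lay close to theirs. The intervals cover counting error only and treat neighbouring peaks as independent.

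The peaks without a partner were narrow and low-scoring in both arms. In replicate 1 their median width was 1125 bp in the left arm and 1053 bp in the right arm, against 2315 and 2261 bp for the matched peaks. In replicate 7 it was 1153.5 and 1121 bp, against 1820 and 1576.5 bp. The highest score among them was 348.92 in the left arm and 314.66 in the right arm in replicate 1, and 321.12 and 291.33 in replicate 7. Each list was divided into 3 classes of equal size by score. In the highest class every arm peak had a partner, with 59 and 39 peaks in the left and the right arm in replicate 1 and 64 and 22 in replicate 7. In the middle class 1 peak had none, a replicate 7 peak of the left arm. Over the whole lists the shares in the middle class were 99.2% in replicate 1 and 99.6% in replicate 7, and in the highest class 1991 of 1991 and 2073 of 2074 peaks had a partner. In the lowest class the share of replicate 1 peaks with a partner was 71.6% (58 of 81, 60.5 to 81.1%) in the left arm and 50.6% (42 of 83, 39.4 to 61.8%) in the right arm, against 69.5% of that class in the whole list. For replicate 7 it was 74.0% (71 of 96, 64.0 to 82.4%) in the left arm and 89.0% (73 of 82, 80.2 to 94.9%) in the right arm, against 85% of that class in the whole list. The class shares of the left arm in replicate 1 and of the right arm in replicate 7 had the whole list's share inside their intervals, and the other 2 lay below it. The lowest class held 38.9% and 38.1% of the left arm's peaks in replicates 1 and 7, and 47.2% and 51.6% of the right arm's.

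**Figure D4:**
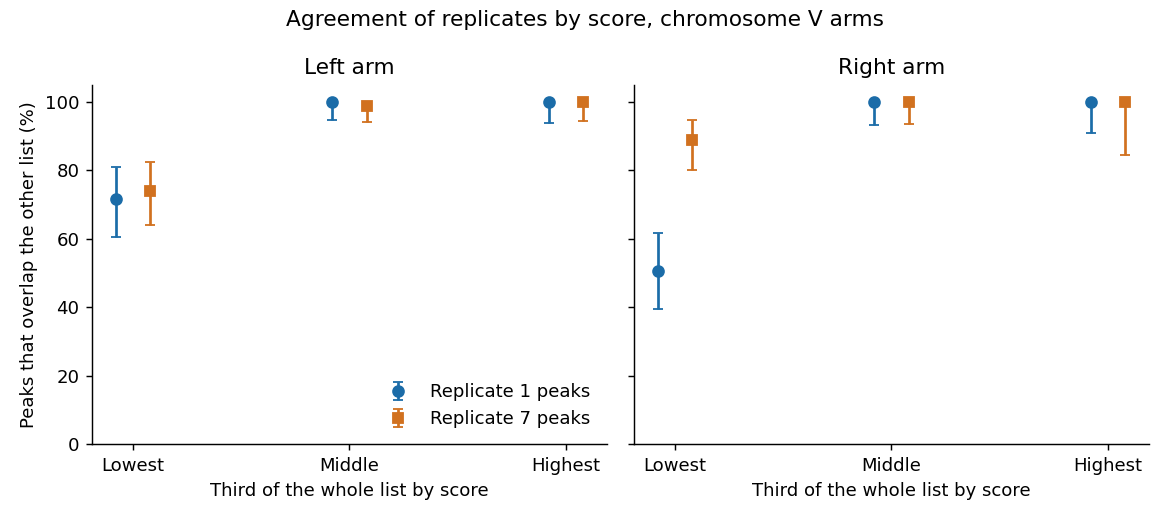
Percentage of arm peaks that overlap a peak of the other list (vertical axis) by class of score within their own whole list (horizontal axis), for the left arm (left panel) and the right arm (right panel); circles are peaks of replicate 1, squares are peaks of replicate 7, and bars are exact 95% intervals, which cover counting error only. The middle and highest classes lie at 98.9% or above in both panels, and in the lowest class the replicates lie close together in the left arm (71.6% and 74.0%) and apart in the right arm (50.6% and 89.0%).

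Of the highest-scoring peaks without a partner, some lay beside a peak of the other list and some lay far from any. Those of replicate 1 in the left arm, 202208 to 203893, 4815638 to 4817810 and 4190230 to 4191690, were 1339, 540 and 1004 bp from the nearest replicate 7 peak. Those of replicate 1 in the right arm, 19930309 to 19931574, 18063869 to 18065419 and 20879600 to 20881932, were 8482, 5352 and 2027 bp away. In replicate 7 the first of the left arm, 1582908 to 1585174, was 104584 bp from any replicate 1 peak, and the next, 4187760 to 4189225 and 3757781 to 3759210, were 1004 and 1822 bp away. The right-arm peaks of replicate 7 at 16554932 to 16557161, 16553227 to 16554565 and 20153957 to 20155564 were 8530, 6825 and 54059 bp away.

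By length, the replicates shared 491 kb in the left arm, or 76.7% of the 640 kb covered in either list, and 318 kb in the right arm, or 67.9% of the 468 kb. The shared length was 85.3% of the replicate 1 cover and 88.4% of the replicate 7 cover in the left arm. For the right arm these shares were 73.4% of the replicate 1 cover and 90.0% of the replicate 7 cover. Replicate 1 alone covered 84.4 kb in the left arm and 115 kb in the right arm. Of the 115 kb, 49.3 kb lay in peaks without a partner, 10.7 kb in gaps between replicate 7 peaks that 1 replicate 1 peak joined, and 54.9 kb at the outer edges of matched peaks. In the left arm these lengths were 28.3, 10.6 and 45.5 kb. The internal island at 17846696 held 37.0 kb of the replicate 1 length without replicate 7 cover, and without it and the left arm's largest island the shared percentage was 75.5% in the left arm and 68.2% in the right arm.

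Where 1 peak matched 1 peak, the edges had almost no net shift in the left arm and mostly lay inward for replicate 7 in the right arm. The left arm had 140 such pairs, with a median width ratio, replicate 7 over replicate 1, of 0.995 (interquartile range 0.898 to 1.06), and 74 of the 140 were narrower in replicate 7. The right arm had 100 pairs, with a median ratio of 0.915 (0.801 to 1.02), and 73 of the 100 were narrower in replicate 7. The median signed shift from replicate 1 to replicate 7 was 2.5 bp at the start and -3 bp at the end in the left arm. In the right arm it was 63 bp and -51 bp, where a positive value means a higher coordinate in replicate 7. Shifts of opposite sign cancel in these medians. Without sign, the median shift was 82.5 bp at the start and 98.5 bp at the end in the left arm, and 132.5 and 150 bp in the right arm. Across the pairs the scores of the replicates had a Spearman's rho of 0.868 in the left arm and 0.820 in the right arm. These are correlations across peaks of the same libraries, not across samples.

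**Figure D5:**
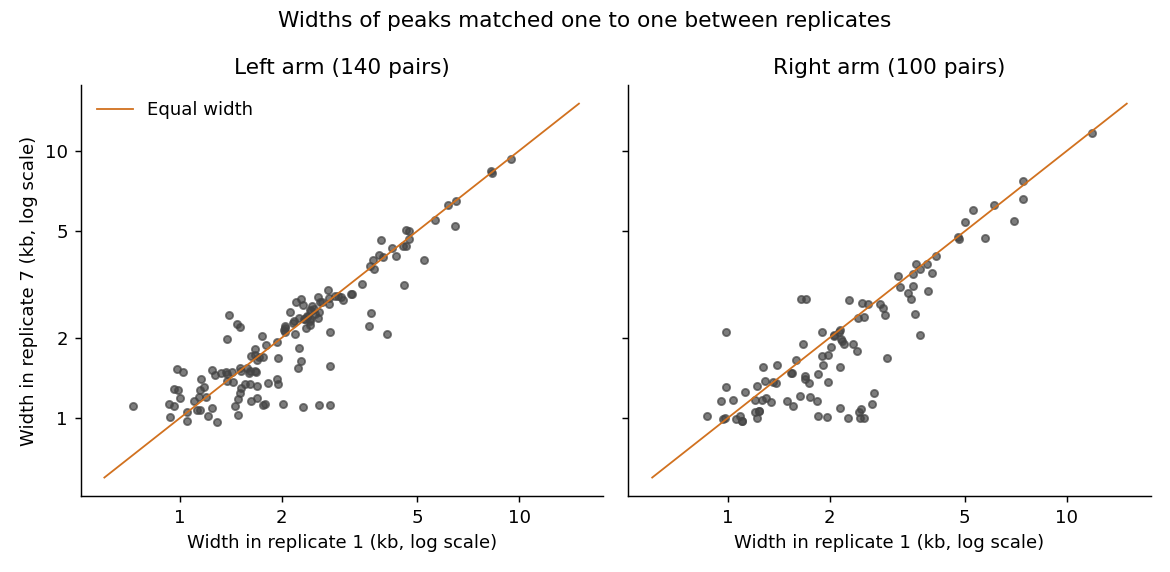
Width of each peak in replicate 7 (vertical axis, kb, log scale) against its width in replicate 1 (horizontal axis, kb, log scale) for peaks matched 1 to 1, in the left arm (140 pairs, left panel) and the right arm (100 pairs, right panel); the line marks equal width. In the right panel 73 of the 100 points lie below the line, and in the left panel 74 of 140.

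The highest-scoring peaks were shared by both lists in full or nearly so. Many peaks of each list are tied at a score of 3100. This score or more was reached by 23 peaks of the left arm in each replicate (11.1% in replicate 1 and 9.13% in replicate 7). In the right arm it was reached by 11 peaks in replicate 1 (6.25%) and 6 in replicate 7 (3.77%). On the other chromosomes together the shares were 17.6% in replicate 1 and 13.9% in replicate 7, above both arms in each list. Within the whole lists, the median left-arm peak stood at percentile 43.6 by score in replicate 1 and 42.9 in replicate 7, and the median right-arm peak at 35.6 and 32.1. In the left arm the first by score, with ties ordered by width, were 185974 to 197794, 1008275 to 1017757 and 4338350 to 4346591 in replicate 1. In replicate 7 they were 186117 to 190715, 110695 to 123073 and 1008402 to 1017696. Those of the right arm were 19634506 to 19642502, 20833270 to 20840696 and 17942076 to 17949496 in replicate 1. In replicate 7 they were 20833251 to 20840977, 20828291 to 20832984 and 18719631 to 18723676, with scores of 3222.65, 3154.49 and 3127.72. Each of these 12 peaks had a partner in the other list, which covered 88.7% or more of it.

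Compared with the rest of chromosome V, the arms had less cover, narrower peaks and longer empty stretches, with the peaks of the arms closer together where they occurred. In replicate 1 peaks covered 9.84% of the arms and 12.4% of the centre, and in replicate 7 they covered 8.87% and 12.4%. Arms minus centre was -2.58 and -3.54 percentage points, a mean of -3.06 ± 0.679 (SD, n = 2), lower in 2 of 2 samples (exact sign-flip test, two-sided p = 0.5, the smallest it can give). Arm peaks had median widths of 1985 bp (replicate 1) and 1612 bp (replicate 7), against 2495 and 2496 bp in the centre (exact sign-flip test, two-sided p = 0.5). The median gap between neighbouring peaks was 3396 and 2440 bp in the left arm and 1786 and 2272.5 bp in the right arm, against 7687.5 and 6926 bp in the centre. Stretches of at least 100 kb without a peak of the same list, which took up 34.5% ± 1.40 of the left arm and 53.2% ± 0.0139 of the right arm, took up 18.4% ± 0.705 of the centre (SD, n = 2). The number of peaks per Mb was 37.5 and 40.1 in the arms and 42.3 and 41.9 in the centre. The replicates shared 84.5% of the length covered in either list in the centre, above the 76.7% and 67.9% of the left and the right arm. On the other chromosomes together, cover was 20.2% in replicate 1 and 19.2% in replicate 7, above the arms of chromosome V in both, and there were 64.9 and 67.8 peaks per Mb.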

How the data were processed

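The input is 1 peak list for each of the 2 immunoprecipitated samples. The 2 input DNA samples served as the authors' controls, and their values were not analysed here. Per the labels' protocols, fragments of 250 to 500 bp were isolated and amplified with 18 cycles of PCR. Per the file headers, positions refer to WormBase WS190. The start and end positions (other measurements, in bp) and the score per peak were deposited by the authors, and the headers do not define the score. The names of the lists and of the peaks carry MACS, and the source column alone carries MA2C. BWA is named in the submitters' processing notes. Apart from the list names, no version or setting is given in the sources used here. Depth is unknown.

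Peaks were placed by midpoint. The chromosome was taken to end at the last peak end in either list, 20901674. Cover is the percentage of bases under peaks. Islands and stretches use a minimum of 50 kb. Peaks matched when they overlapped by at least 1 bp. Regions named are, per arm and list, the 3 widest peaks, the 3 highest-scoring and the 3 highest-scoring without a partner, and per arm the 3 islands with the most and the fewest peaks (ties by length) and the 3 longest stretches. The arms, rules and alternatives were chosen with earlier results of these data known. No genome of build WS190 was used here, so no sequence or gene is given. Python 3.11.15, numpy 2.4.6 and scipy 1.17.1 were used. The interval code was tested on 20 simulated pairs of lists, with 0 differences from a base-by-base count.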

Additional observations from a re-analysis of the deposited data

Results flagged for a closer look

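The number of peaks differed between the replicates in opposite directions in the arms. Replicate 7 had 44 more peaks than replicate 1 in the left arm (252 and 208), and the difference, replicate 7 minus replicate 1, was -17 in the right arm (159 and 176). Each direction rests on 1 library per replicate, and the difference was not tested. After joining peaks within 500 bp the counts were 178 and 168 in the left arm and 123 and 127 in the right arm for replicates 7 and 1.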

How the results depend on the processing

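Left minus right in cover, 0.564 percentage points, reversed to -0.157 with boundaries 0.5 Mb towards the chromosome ends and to -0.0647 without the longest empty stretch of each arm, and each replicate alone gave -0.182 to 1.31. The left arm was higher in both replicates (exact sign-flip p = 0.5) in the upper 50% of each whole list by score, at 1.06, and with the middle 50% as centre, at 1.24. So it was with boundaries 0.5 Mb towards the centre, at 1.15, and without the island with the most peaks in each arm, at 1.30. Leaving out these islands takes a larger share of cover from the right arm. The cut to the upper 50% takes a larger share of its peaks, and leaving out the longest empty stretch takes a larger share of its length. Left minus right in peaks per Mb, 0.492, reversed to -2.28 and -2.32 under the same settings, and each replicate alone gave -5.19 to 6.17. Left minus right in median width reversed to -205.5 bp in the upper 50% of peaks by score. It was 39.25 bp with peaks within 500 bp joined, where replicate 1 alone turned. Arms minus centre in cover stayed between -4.20 and -2.58 percentage points over its alternatives. The share of replicate 1 arm peaks with a partner was 83.3%. It was 79.2% when 50% of the peak had to be covered and 69.3% with reciprocal 50% overlap. That of replicate 7, 91.5%, was 64.7% with reciprocal 50% overlap. With both lists cut to their upper 50% by score, the shares were 75.2% in replicate 1 and 85.8% in replicate 7. A partner below the cut is then lost, so these shares do not mean that high-scoring peaks matched less often. Against the whole other list, 98.9% or more of the arm peaks in the middle and highest classes by score had a partner. The shared length was 65.9% in the left arm and 59.4% in the right arm with both lists cut to the upper 50% of peaks. That cut, too, drops partners below it. With peaks within 500 bp joined it was 78.1% and 68.6%, and with the middle 50% of the chromosome as centre 76.1% and 68.7%. It was 75.5% and 68.2% without the island with the most peaks in each arm. Islands numbered 69 and 37 in the left and the right arm with stretches of 20 kb, and 13 and 10 with 100 kb. Each replicate alone gave 37 to 38 in the left arm and 21 to 24 in the right arm. Left minus right in the length in stretches of 50 kb free of both lists, -8.32 percentage points, was -0.270 with 20 kb, -17.2 with 100 kb, -3.90 in the upper 50% of peaks, -9.57 with the middle 50% as centre, -6.01 and -11.7 with boundaries 0.5 Mb towards the ends and the centre, and -9.49 to -4.92 for each replicate alone. The alternatives for this length and for leaving out islands were chosen after seeing the data. The cause was not tested. Immunoprecipitations were not compared with inputs, the input samples having no peak list analysed here. Left minus right and arms minus centre were paired, since both regions were read within each replicate. With unknown depth, marked regions that the authors' calling missed cannot be told from unmarked ones.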
